A study of Homo sapiens with 4 samples.

Results

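Proteins of the small ribosomal subunit were followed through a genome-wide CRISPR-Cas9 knockout screen as 28 genes, the 27 RPS genes listed by name for this purpose and FAU, out of 19112 gene symbols in the table. Members were chosen as cytosolic 40S protein genes by their symbol in the gene column of the sgRNA table, a rule that takes in no count. Not all proteins of the subunit are among the 28, since 32 genes of the table bear such symbols. The screen was made in A549, an established human lung adenocarcinoma line, transduced with the Brunello lentiviral library, a pool of sgRNAs that each guide Cas9 to a single gene. Transduced cells were passaged with 4 µM HQ461, a cytotoxic compound, or with the vehicle DMSO at 0.1% (v/v), for 3 weeks after selection with puromycin. The labels give 2 biological replicates per condition, 4 in all, but the deposited table has 1 column for HQ461 and 1 for DMSO, so no difference between them could be set against a spread between cultures. No p-value is therefore given, and a gene past 2-fold is one whose log2 fold change, HQ461 over DMSO, was at least 1 or at most -1.

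The 40S subunit binds mRNA and decodes it, and its proteins fold and hold the 18S rRNA. Most of these proteins are needed by any growing cell, and loss of a single one can block the maturation of the subunit. In a pooled screen, sgRNAs against such genes become rare as the cells that carry them stop dividing, and the count of an sgRNA in a growing population follows the growth of its cells. Proteins with the prefix uS in the uniform nomenclature have counterparts in bacteria, whereas those with eS do not. By place in the subunit, 12 of the genes encode proteins of the head and 16 encode proteins of the body and platform.

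The HQ461 column held 16127620 counts and the DMSO column 14428845, over 77441 sgRNAs. The median sgRNA had 111 counts with HQ461 and 153 with DMSO, and 1043 sgRNAs were at 0 with HQ461 against 542 with DMSO. Counts were scaled by the median ratio, 1 was added, and the log2 fold change of a gene was the median over its sgRNAs with a count in either column. Counts are PCR reads, so the interval of a ratio covers counting error only. The interval of a share of sgRNAs treats sgRNAs as independent draws, although sgRNAs of the same gene can go together. Neither covers a spread between cultures. The letters of the sgRNAs, counts from before treatment and the editing at each site were not analysed here.

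The sgRNAs against small-subunit genes were rare in both populations, and rarer with DMSO than with HQ461. Each of the 28 genes had 4 sgRNAs, 112 together or 0.145% of the library, and these held 0.0240% of all counts with HQ461 and 0.0208% with DMSO. Their median count was 10.5 with HQ461, which is 9.46% of the median of all sgRNAs in that column, and 7 with DMSO, which is 4.58% of the median there. Summed counts were 3865 with HQ461 and 2996 with DMSO, a scaled ratio of 1.86 (95% interval 1.77 to 1.95, exact Clopper-Pearson), against 1.62 summed over the sgRNAs of all genes. RPS29 and RPS27 together held 28.8% of these counts with HQ461 and 22.6% with DMSO, and without them the ratio was 1.71 (1.62 to 1.81). By this measure, which the most abundant sgRNAs dominate, the members lay close to the library.

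**Figure D1:**
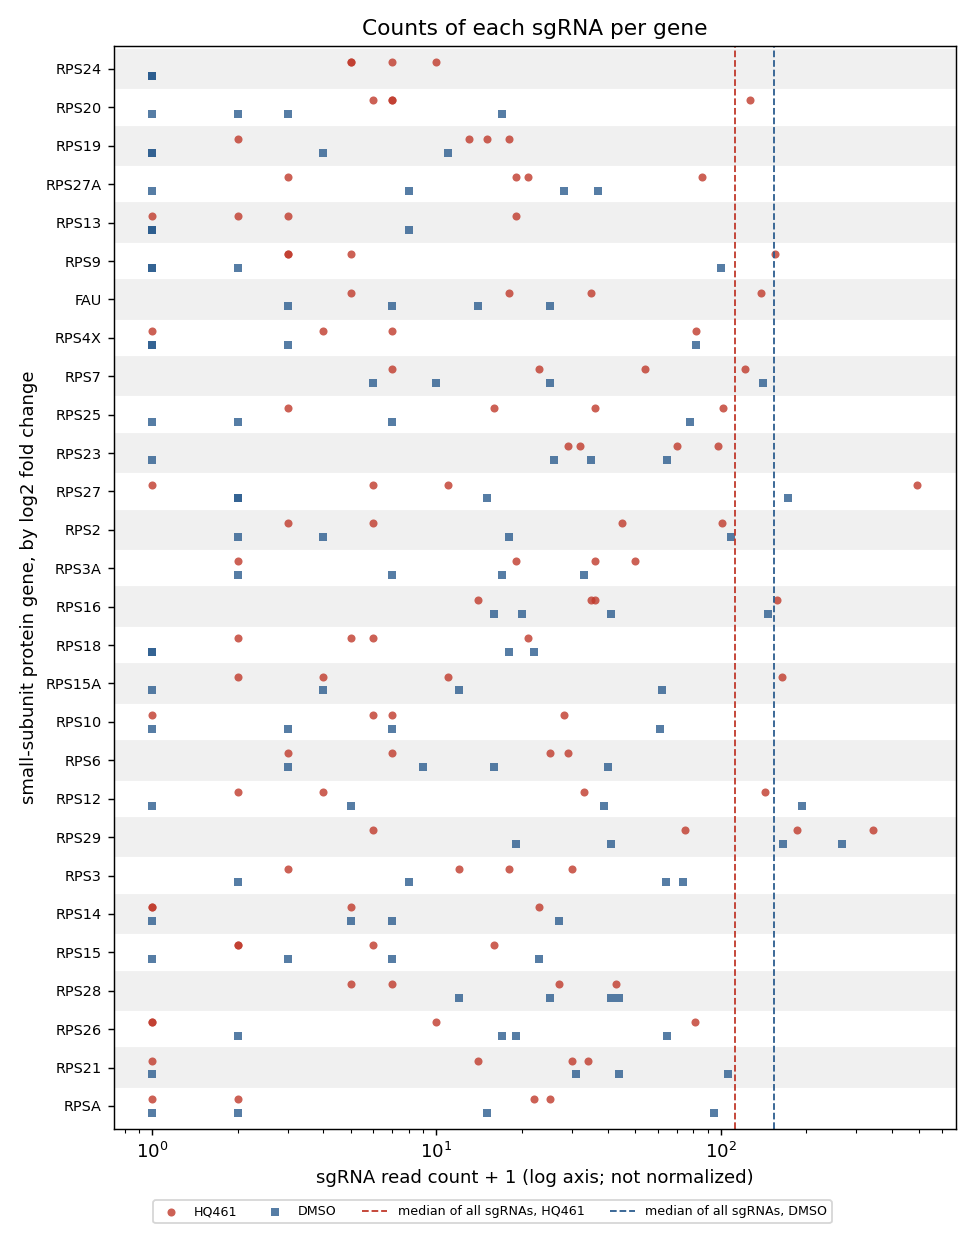
Read counts of each of the 4 sgRNAs against the 28 small-subunit genes, with 1 added, on a log axis, with HQ461 as circles above and DMSO as squares below, and genes ordered by log2 fold change. Dashed lines mark the median of all sgRNAs, 111 counts with HQ461 and 153 with DMSO, and most points lie to the left of both.

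Counts of 0 were fewer with HQ461 than with DMSO among these sgRNAs, which is the opposite of the library. With HQ461 10 of 112 sgRNAs were at 0, or 8.93% (4.36% to 15.8%), and with DMSO 26 of 112, or 23.2% (15.8% to 32.1%). Over all targeting sgRNAs the share at 0 was 1.36% with HQ461 and 0.705% with DMSO. A count with HQ461 and 0 with DMSO was found for 23 of the member sgRNAs, the reverse for 7, and 3 were at 0 in both columns, while over all targeting sgRNAs 269 were at 0 in the DMSO column alone and 768 in the HQ461 column alone. Of the 23, 13 had more than 3 counts with HQ461 and the highest had 97. Of the 7, 3 had more than 3 counts with DMSO and the highest had 18. At least 1 sgRNA was at 0 with HQ461 in 8 of the genes and with DMSO in 17, and the shares of all genes with such an sgRNA were not computed. An sgRNA at 0 may still have up to 3 counts at this depth, so a count of 0 does not show that cells with that sgRNA were gone.

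**Figure D2:**
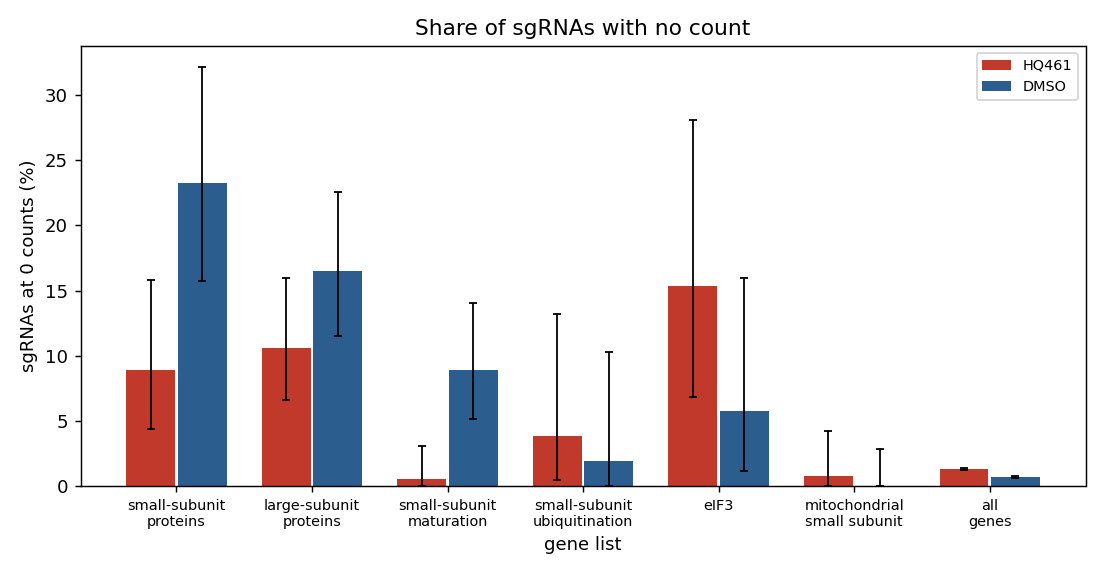
Percent of sgRNAs at 0 counts with HQ461 (left bar) and DMSO (right bar) for the small-subunit genes, 5 comparison lists and all genes. Whiskers are 95% exact Clopper-Pearson intervals that treat sgRNAs as independent draws. For small-subunit genes the HQ461 share is 8.93% and the DMSO share 23.2%, and over all genes the HQ461 share is the higher one.

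Across the 28 genes the log2 fold change ran from -1.24 for RPSA to 2.79 for RPS24, with a median of 0.86, against -0.02 over all 19111 genes with a count. Past 2-fold higher with HQ461 were 11 of the 28 genes, where 9.01% of all genes were. Past 2-fold lower were 2, RPSA and RPS21, where 7.69% of all genes were. A value above 0 was found for 22 of the 28, against 48.7% of all genes. All measured sgRNAs of the gene lay above 0 in 12 of the 28, against 10.3% of all genes. In none of the 28 did all lie below 0, as they did in 1755 of the 19111 genes. Among single sgRNAs, 52 of 109 with a count were past 2-fold higher and 16 past 2-fold lower, where the library had 19.5% and 17.9%. Agreement within a gene was limited in 10 of the 28 genes, which had sgRNAs past 2-fold in both directions. The share of all genes with such a split was not computed.

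The number of genes past 2-fold depended on how low counts were handled. With 10 in place of 1 added to each normalized count, 0 of the 28 were past 2-fold in either direction, where 7.59% of all genes were past 2-fold higher and 4.06% lower, and the members' median was 0.30. When sgRNAs under 30 normalized counts with DMSO were left out, 18 of the genes had a value, with a median of 0.25. Of these 18, 2 were past 2-fold higher and 4 past 2-fold lower, where 8.92% and 8.06% of all genes were. That minimum removes sgRNAs that are low with DMSO, the denominator of the fold change. It therefore cannot show whether the larger share of higher genes holds. Scaling by total counts moved the median of all genes to -0.70, where the members had a median of 0.37 and 6 were past 2-fold higher against 2.72% of all genes.

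**Figure D3:**
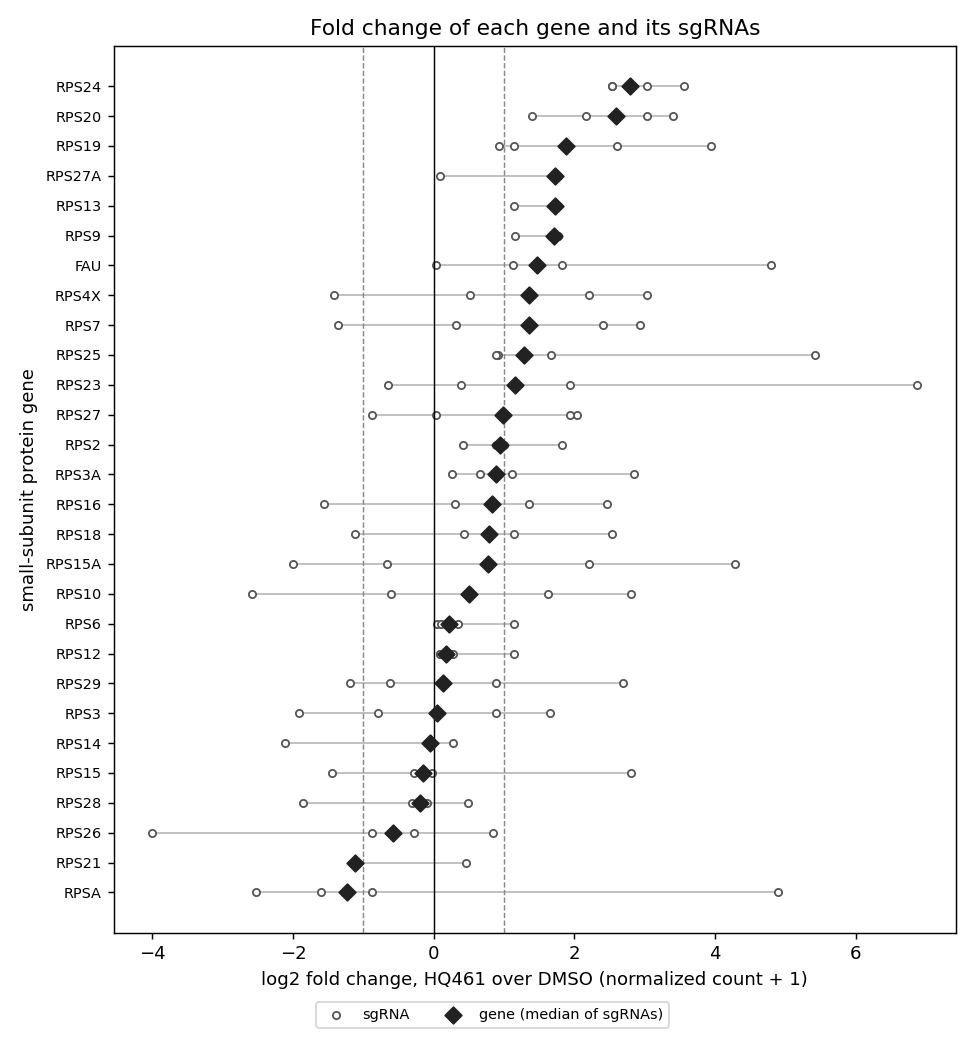
Log2 fold change, HQ461 over DMSO, of each small-subunit gene (diamond, the median over its sgRNAs) and of its sgRNAs with a count in either column (open circles), with a grey line over their range and dashed lines at -1 and 1. The 11 genes from RPS24 down to RPS23 lie past 1, and RPS21 and RPSA lie past -1.

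RPS24 and RPS20 had the highest values. RPS24 (eS24, ENSG00000138326, chromosome 10, 78033760 to 78056813 on GRCh38, plus strand) encodes a body protein and is mutated in Diamond-Blackfan anaemia, an inherited red cell aplasia. Its 4 sgRNAs had 9, 4, 4 and 6 counts with HQ461, and all 4 were at 0 with DMSO. The exact interval of the scaled ratio of the sums, 23 counts with HQ461 and 0 with DMSO, had a lower limit of 8.28. The log2 fold change of RPS24, 2.79, depends on the count added. RPS20 (uS10), a head protein near the path of the mRNA, had sgRNAs of 126, 5, 6 and 6 counts with HQ461 and of 16, 2, 0 and 1 with DMSO. Every RPS20 sgRNA was higher with HQ461, and the scaled ratio of the sums was 10.8 (6.70 to 18.5). With HQ461 the median sgRNA had 6.002 normalized counts for RPS24 and 7.20 for RPS20, so a handful of reads sets these values.

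RPS19, RPS13 and RPS9, with values from 1.71 to 1.88, also had few counts for most of their sgRNAs. RPS19 (eS19), the gene most often mutated in Diamond-Blackfan anaemia, had 1, 12, 17 and 14 counts with HQ461 and 0, 0, 3 and 10 with DMSO, a log2 fold change of 1.88. RPS13 (uS15), a body protein, had 18, 0, 1 and 2 counts with HQ461 and 7, 0, 0 and 0 with DMSO, at 1.73. All 4 sgRNAs of RPS19 and the 3 of RPS13 with a count lay above 0. RPS9 (uS4), which contacts the mRNA where it enters the subunit, had 4, 154, 2 and 2 counts with HQ461 and 1, 99, 0 and 0 with DMSO, at 1.71. Its sgRNA 2 held most of its counts in both columns, and alone had a ratio of 2.24 (1.73 to 2.92).

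RPS27A and FAU encode fusion proteins, from which a ubiquitin or ubiquitin-like part is cut off after synthesis. RPS27A (eS31) is a source of ubiquitin itself, and FAU (eS30) carries the ubiquitin-like protein FUBI. The sgRNAs of RPS27A had 85, 18, 2 and 20 counts with HQ461 and 36, 7, 0 and 27 with DMSO, a log2 fold change of 1.73. Those of FAU had 138, 17, 4 and 34 counts with HQ461 and 6, 24, 2 and 13 with DMSO, at 1.47. One FAU sgRNA thus stood far above the others with HQ461, and sgRNA 2 had nearly the same scaled count in both, with a ratio of 1.02 (0.515 to 1.98). FAU (ENSG00000149806, chromosome 11, 65120630 to 65122177, minus strand) lies 3.78 Mb beyond DDB1 on 11q, where 249 genes within 10 Mb had a median of 0.59, and the part of its position in its value was not tested. No other member lies in that region, in the part of 11q between the centromere and DDB1 or on chromosome 17, where genes were higher together.

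RPS4X, RPS7, RPS25 and RPS23 were also past 2-fold higher, with 1 sgRNA in the other direction in each but RPS25, whose 4 sgRNAs all lay above 0. RPS4X (eS4), an X-linked body protein with copies on the Y chromosome, had 81, 0, 6 and 3 counts with HQ461 and 81, 2, 0 and 0 with DMSO, at 1.36. RPS7 (eS7) of the body had 121, 6, 53 and 22 counts with HQ461 and 140, 24, 9 and 5 with DMSO, also at 1.36. In both genes 3 of 4 sgRNAs were higher with HQ461 after scaling. RPS25 (eS25), a head protein that several viral RNAs need to start translation, had 15, 101, 35 and 2 counts with HQ461 and 6, 77, 0 and 1 with DMSO, at 1.29. RPS23 (uS12), at the decoding centre, had 28, 69, 97 and 31 counts with HQ461 and 64, 25, 0 and 34 with DMSO, at 1.16. In both RPS25 and RPS23 sgRNA 3 was at 0 with DMSO. The exact interval of its scaled ratio had a lower limit of 12.96 for RPS25 and 37.2 for RPS23. RPS23 was left with sgRNA 1 alone, at -0.65, when sgRNAs under 30 normalized counts with DMSO were left out.

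By summed counts, the interval of the scaled ratio lay above 1 in all 11 of these genes, in 6 further genes, and below 1 in 3. It covered 1 in the other 8. The share of all genes with such intervals was not computed, and 1 is not the centre of the library by this measure. All genes had a ratio of 1.62 summed together and a median log2 fold change of 0.22 by summed counts. Among those above 1, the intervals of RPS4X, RPS7, RPS2, RPS16 and RPS29 took in 1.62. The intervals of RPS10, RPS12 and RPS28, which covered 1, and of RPS3, RPSA and RPS21 lay wholly under 1.62. All other intervals that covered 1 took in 1.62. The 6 further genes were RPS27, RPS2, RPS3A, RPS16, RPS15A and RPS29, whose log2 fold changes were between 0.13 and 0.99. RPS27 (eS27), a body protein with a zinc finger, came closest to the threshold at 0.99, and RPS23 at 1.16 was the closest above it. The sgRNAs of RPS27 had 491, 10, 0 and 5 counts with HQ461 and 172, 14, 1 and 1 with DMSO, so 1 sgRNA gave nearly the whole ratio of 3.88 (3.27 to 4.61). RPS15A (uS8) was alike, with 3, 10, 1 and 164 counts with HQ461 and 0, 61, 3 and 11 with DMSO, a ratio of 3.42 (2.60 to 4.54). RPS2 (uS5), RPS3A (eS1) and RPS16 (uS9) had values of 0.95, 0.89 and 0.83, and all 4 sgRNAs of RPS2 and of RPS3A lay above 0.

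RPS29 was the most abundant of the 28 in both columns. RPS29 (uS14) is a short zinc-binding protein of the head. Its sgRNAs had 343, 5, 184 and 74 counts with HQ461 and 266, 18, 40 and 165 with DMSO, a log2 fold change of 0.13. Of these, 2 sgRNAs were higher and 2 lower with HQ461. For RPS29 the median over sgRNAs of the normalized count was 155 (HQ461) and 85.4 (DMSO), whereas for all genes the median of this value was 137 and 130. Among the 28 genes it ran from 2.40 to 155 with HQ461, with a median of 16.2, and from 0 to 85.4 with DMSO, with a median of 7.497.

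The interval of the summed ratio covered 1 in RPS18, RPS10, RPS6, RPS12, RPS14, RPS15 and RPS28, whose values lay between -0.20 and 0.79, and in RPS26. RPS6 (eS6), the substrate of the S6 kinases, had 28, 2, 24 and 6 counts with HQ461 and 39, 2, 15 and 8 with DMSO, at 0.22. RPS14 (uS11), whose loss on 1 allele underlies the anaemia of the 5q deletion syndrome, had 4, 0, 22 and 0 counts with HQ461 and 6, 0, 26 and 4 with DMSO, at -0.05. These counts were nearly the same in the columns. RPS10 (eS10), with RPS20 a target of the ligase ZNF598 on stalled ribosomes, had 5, 27, 0 and 6 counts with HQ461 and 0, 60, 6 and 2 with DMSO, at 0.51. The summed ratio of RPS10 was 0.805 (0.527 to 1.21), an interval that did not overlap that of RPS20. RPS3 (uS3), at the mRNA entry channel, had 11, 2, 17 and 29 counts with HQ461 and 63, 1, 7 and 73 with DMSO, a median of 0.05 but a summed ratio of 0.590 (0.428 to 0.805).

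RPSA, RPS21 and RPS26 were at the low end. RPSA (uS2, ENSG00000168028, chromosome 3, 39406716 to 39426255, plus strand), also known as the laminin receptor precursor, had 1, 0, 21 and 24 counts with HQ461 and 14, 1, 94 and 0 with DMSO. Its log2 fold change was -1.24 and its summed ratio 0.608 (0.421 to 0.866), although sgRNA 4, at 0 with DMSO, was higher with HQ461. The exact interval of the scaled ratio of that sgRNA had a lower limit of 8.67. RPS21 (eS21), which sits beside RPSA in the body, had 13, 0, 33 and 29 counts with HQ461 and 43, 0, 105 and 30 with DMSO, at -1.12. RPSA and RPS21 thus encode neighbouring proteins, a feature seen after the values were known. They are 7.14% of the 28 genes, near the 7.69% of all genes past 2-fold lower. RPSA was at -0.02 by the mean over sgRNAs, and RPS21 at -0.56 with no filter. RPS26 (eS26), at the mRNA exit channel, had 0, 0, 9 and 80 counts with HQ461 and 18, 1, 16 and 64 with DMSO, at -0.58. Its summed ratio went the other way, at 1.30 (0.962 to 1.74). Its sgRNA 1, at 0 with HQ461, was lower, with an exact upper limit of 0.328 for the scaled ratio, and its sgRNA 4 was higher.

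Grouped by place, the 16 body genes had a median of 0.97, with 7 past 2-fold higher and 2 lower. The 12 head genes had a median of 0.65, with 4 higher and 0 lower. Over all genes 9.01% were past 2-fold higher and 7.69% lower. Counts of 0 with HQ461 were found at 9 of 64 sgRNAs in the body (14.1%, 6.64% to 25.02%) and 1 of 48 in the head (2.08%, 0.0527% to 11.1%), with intervals that overlap. With DMSO they were 16 of 64 (25%, 15.0% to 37.4%) in the body and 10 of 48 (20.8%, 10.5% to 35.0%) in the head. By conservation, the 15 eS genes had a median of 0.99 with 7 past 2-fold higher and 1 lower, and the 13 uS genes a median of 0.79 with 4 higher and 1 lower. Sum ratios were 2.11 (1.97 to 2.26) for the body and 1.62 (1.51 to 1.74) for the head, and 1.91 (1.78 to 2.04) for eS and 1.81 (1.69 to 1.94) for uS genes. Over all genes this ratio was 1.62, as in the head, and RPS27 alone held 506 of the 2150 counts of the body with HQ461. The interquartile range of the genes was 0.16 to 1.39 in the body and 0.11 to 1.40 in the head.

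Processed copies are many for these genes. GENCODE names 474 pseudogenes after the 28, from 1 for RPS9 to 74 for RPSA, with a median of 14 per gene. Whether an sgRNA also matches such a copy was not tested. Over the 28 genes, Spearman's rho of the number of pseudogenes was 0.22 with the median DMSO level and -0.15 with the log2 fold change, which share the DMSO column. The genes lie on 16 chromosomes, with 5 on chromosome 19 and 4 on chromosome 11.

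Genes with low sgRNA levels had a median below 0 in the library, and the part of low counts in the members' values was not tested. The level of a gene was taken as the mean over both columns of its median normalized count per sgRNA, and 24 of the 28 genes lay under 30, as did 5.28% of all genes. Among all 1009 genes under 30, 9.22% were past 2-fold higher and 31.7% past 2-fold lower. Under a level of 10 these shares were 10.4% and 40% of 280 genes, whose median was -0.75, while the 14 small-subunit genes there had a median of 0.89 with 6 past 2-fold higher and 1 lower. Between 10 and 30 the median was -0.44 over 729 genes and 0.92 for the 10 members among them. Of these 10, 4 were past 2-fold higher and 0 lower, where 8.78% and 28.5% of the 729 genes were. Within the 28, the value was lower at a higher DMSO level (Spearman's rho -0.55 across genes), but the fold change has that level in its denominator.

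**Figure D4:**
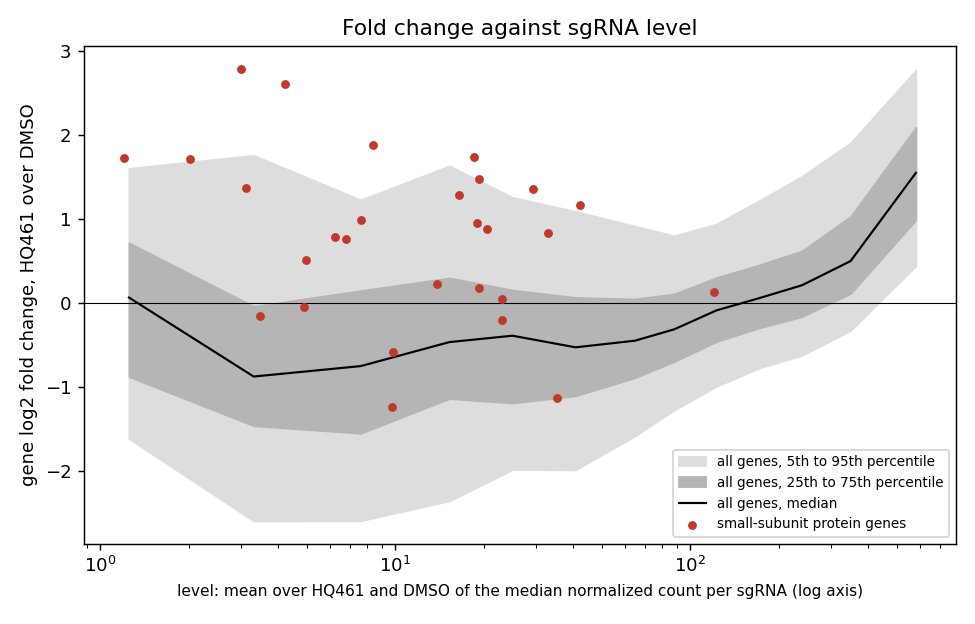
Gene log2 fold change, HQ461 over DMSO, against the level of the gene, on a log axis, with small-subunit genes as points and all genes as percentile bands in bins of level. Between levels of 2 and 100 the median of all genes lies under 0, while most of the small-subunit genes lie above it.

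Closely related genes outside the subunit's core set were not low. RPS4Y1 and RPS4Y2, the Y-linked copies of RPS4X, and RPS27L, a relative of RPS27, had log2 fold changes of -0.03, -0.32 and 0.21. The 12 sgRNAs of these 3 genes had a median of 163 counts with HQ461 and 188 with DMSO, close to the library and far above the 10.5 and 7 of the small-subunit genes, and none was at 0. Of the read-through locus that the table calls RPS10_NUDT3, chosen after its values were seen, 2 sgRNAs had 135 and 58 counts with HQ461 and 144 and 149 with DMSO. The other 2 had 0 and 2 counts with HQ461 and 0 and 0 with DMSO, a level like that of RPS10, and whether they cut RPS10 was not tested.

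The large subunit was close to the small one in level and had a lower median. Its 47 genes had a median of 0.37, and 17 of them were past 2-fold higher and 4 lower, where 9.01% and 7.69% of all genes were. With scaling by total counts its median was -0.20, where the median of all genes was -0.70. The medians of the subunits were 0.49 apart, and the interquartile range was 0.11 to 1.39 for the small subunit and -0.25 to 1.12 for the large one. RPL35, RPL19 and RPL27A had the highest values of the large subunit, at 2.46, 2.02 and 1.84, and RPL19 lies on chromosome 17. RPL24, RPL12 and RPL7A had the lowest, at -1.41, -1.38 and -1.29. Summed counts had a ratio of 1.36 (1.32 to 1.41), below the 1.86 of the small subunit and also below the 1.62 of all genes. Counts of 0 were 10.6% with HQ461 (6.62% to 16.0%) and 16.5% with DMSO (11.5% to 22.6%). Without chromosome 17 and 11q up to 10 Mb beyond DDB1 the medians were 0.83 for 27 small-subunit genes and 0.23 for 41 large-subunit genes, and 10 of the 27 were past 2-fold higher, where 5.69% of all genes outside these regions were.

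Factors that build the small subunit had a median near that of its proteins. Of 46 listed processing and maturation factors 45 were in the table, with a median of 0.80, 19 past 2-fold higher and 0 lower. The shares over all genes were 9.01% and 7.69%. UTP6 (2.96, on chromosome 17) and MPHOSPH10 (2.74), of the complex that processes the early transcript, and NOB1 (2.66), the nuclease that makes the end of 18S rRNA, were highest. A single NOB1 sgRNA had 3209 counts with HQ461 and 97 with DMSO, while its other 3 had 6, 35 and 180 with HQ461 and 9, 29 and 10 with DMSO. RIOK2, TSR2 and NOP58 were lowest, at -0.82, -0.62 and -0.38. TSR2 is the chaperone of RPS26, which was at -0.58 but had a summed ratio of 1.30. At 0 were 1 of the 180 sgRNAs with HQ461 and 16 with DMSO, so zeros were fewer with HQ461 here too.

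The lists for eIF3, small-subunit ubiquitination and mitochondrial small-subunit proteins had medians below 0. The 13 subunits of eIF3, the initiation factor that binds the 40S subunit, had a median of -0.50, with 2 past 2-fold higher and 5 lower. Over all genes the shares were 9.01% and 7.69%. EIF3L and EIF3K, at 2.39 and 1.199, were the 2 higher ones, EIF3D was at 0.81, and EIF3I, EIF3A and EIF3C had the lowest values, at -2.29, -2.23 and -1.62. The sgRNAs of EIF3A had 2, 1, 1 and 0 counts with HQ461 and 18, 13, 8 and 0 with DMSO. Of 14 listed factors of small-subunit ubiquitination and its reversal 13 were in the table, with a median of -0.32, 0 past 2-fold higher and ASCC3, at -1.38, past 2-fold lower. GNB2L1, now RACK1, itself a protein of the 40S head, had 17, 8, 1 and 1 counts with HQ461 and 19, 30, 5 and 2 with DMSO, at -0.75. ASCC2 was highest at 0.53, then USP10, which removes ubiquitin from 40S proteins, at 0.49 and OTUD3 at 0.23, and RNF10 was at -0.97. Mitochondrial small-subunit proteins, 32 genes, had a median of -0.43, with 0 past 2-fold higher and 5 lower. AURKAIP1, MRPS16 and MRPS27 were highest, at 0.99, 0.55 and 0.50, and MRPS14, MRPS10 and DAP3 lowest, at -1.68, -1.38 and -1.35. All genes with a level between 30 and 100 had a median of -0.38, with 3.91% past 2-fold higher and 17.4% lower, close to the mitochondrial list.

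**Figure D5:**
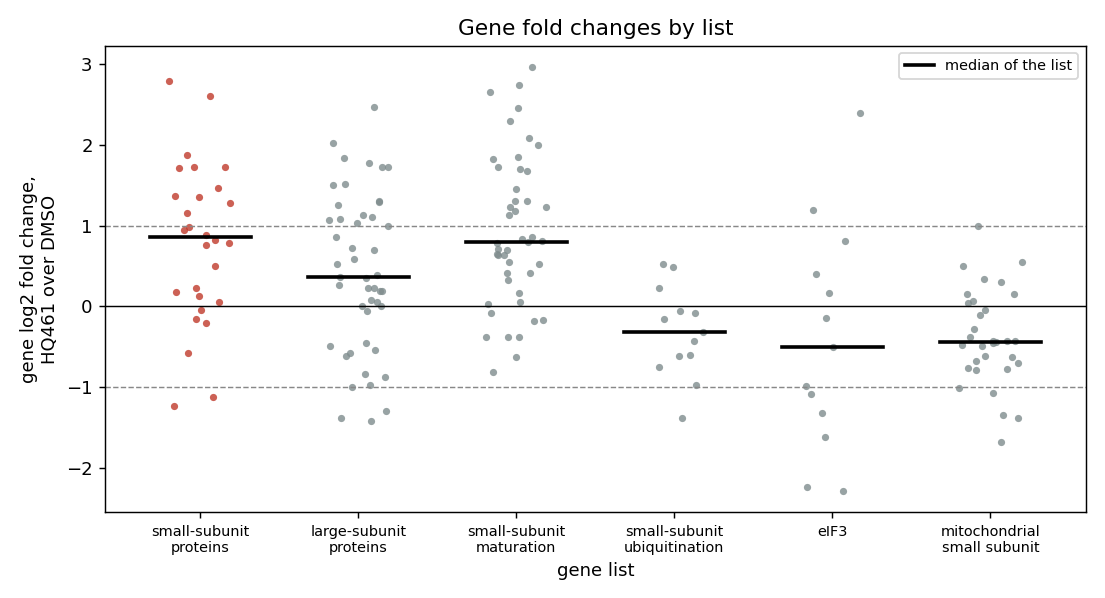
Log2 fold change, HQ461 over DMSO, of each gene of the small subunit and of 5 comparison lists, with black bars at the medians and dashed lines at -1 and 1; horizontal spread within a list is for display. Small-subunit proteins (median 0.86) and maturation factors (0.80) lie above the large subunit (0.37), and eIF3 (-0.50), ubiquitination factors (-0.32) and mitochondrial small-subunit proteins (-0.43) lie below 0.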

How the data were processed

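The rule for members reads gene symbols alone, but members and lists were chosen with earlier results of these data known. The authors counted reads per sgRNA with MAGeCK 0.5.9.2 and deposited the counts without normalization, 1 column per condition. Nothing in the sources used here says how the 2 replicates of a condition were merged. The planned test across replicates was not run because the columns are pooled. The authors' rank test compares sgRNAs within these columns and was not repeated.

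Calculations used Python 3.11.15 (pandas 2.3.3, scipy 1.17.1, numpy 2.4.6). Median-ratio size factors were 0.833 for HQ461 and 1.20 for DMSO. The 273 sgRNAs without a count in either column were dropped, 1 was added to normalized counts and a gene took the median log2 fold change of its sgRNAs. This was tested on simulated data for genes drawn from the whole library, most of them at far higher counts than the members. The simulation does not show how the value behaves at the members' low counts. Positions came from GENCODE 44 on GRCh38, where 18716 of 19111 genes were placed by symbol or older symbol. Named genes were all members, the 3 highest and 3 lowest of each comparison list, and all paralogs, apart from 1 stated exception. Alternatives were total-count, TMM (edgeR 4.0.16) and control-sgRNA scaling, other pseudocounts, filters, gene summaries and removal of raised regions.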

Additional observations from a re-analysis of the deposited data

How the results depend on the processing

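The median of the 28 genes stayed above 0 under all 12 alternatives and when all 32 small-subunit genes of the table were taken (0.92, with 14 past 2-fold higher and 2 lower). That set of 32, and leaving out sgRNAs at 0 in either column, were chosen after seeing the data. The 11 genes past 2-fold higher (9.01% of all genes) became 6 with total counts (2.72%), 0 with a pseudocount of 10 (7.59%), 2 of 18 with a minimum of 30 normalized counts with DMSO (8.92%) and 7 without the sgRNA of highest fold change of each gene (5.22%). They were 15 with a pseudocount of 0.5 (9.18%), 12 by summed counts (18.1%), 8 of 27 without sgRNAs at 0 in either column (9.17%) and 10 to 13 under the others (5.69% to 10.2%). The 2 genes past 2-fold lower (7.69%) became 0 with a pseudocount of 10 (4.06%) and by summed counts (3.68%), 4 with the minimum of 30 (8.06%), and 1 each with no filter (7.51%) and by the mean over sgRNAs (7.13%).

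The median of 0.86 became 0.37 with total counts, 1.07 and 0.30 with pseudocounts of 0.5 and 10, 0.25 with the minimum of 30, 0.73 by summed counts, 0.31 without the highest sgRNA and 0.51 without sgRNAs at 0 in either column. The large-subunit median of 0.37 became -0.20 with total counts, 0.11 with a pseudocount of 10, -0.057 with the minimum of 30, 0.22 by summed counts, -0.041 without the highest sgRNA and 0.22 without sgRNAs at 0, and it was 0.23 without the raised regions of chromosomes 11 and 17. The median of all genes, at -0.02, was -0.70 with total counts, 0.22 by summed counts and -0.32 without the highest sgRNA. The pseudocount and the minimum act on low counts by construction, and the cause of the other shifts was not tested.

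Of the 11 genes past 2-fold higher, 10 stayed above 0 in every alternative that gave a value, the exception being RPS23 at -0.65 with the minimum of 30, and 6 stayed past 2-fold under every scaling. RPSA was at -0.02 by the mean over sgRNAs. No paired analysis was possible because both replicates of a condition share a column, and for the same reason leaving out a replicate and the replicate block were not run.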
